A study of Mus musculus with 8 samples.

Results

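The tripartite motif (Trim) genes of the chromosome 7 cluster were followed in the subventricular zone of 3xTg mice, with wild-type (WT) mice as controls. The 7 genes were Trim30a, Trim30b, Trim30c, Trim30d, Trim34a, Trim12a and Trim12c, and their probes were found by the gene symbol of the platform annotation. Of the 7 genes 6 were measured, with 10 of the 32684 probes on the array, and Trim30b had no probe under its name. The genes were chosen by measured 3xTg minus WT differences of these same samples, so that difference is given for them as a description and carries no test.

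All mice were female and 7 months old, with 4 samples of 3xTg and 4 of WT. The labels give both genotypes the same mixed background, a cross of C57BL/6J females with 129S1/SvImJ males. 3xTg mice, bred to model Alzheimer's disease, carry among other changes APP and MAPT transgenes of human origin under a Thy1 cassette, which is active mainly in neurons. The tissue was microdissected from the wall of the lateral ventricle, and no further treatment is labelled. Total RNA was hybridised to 2-colour arrays, 2 samples of equal replicate number to an array, 3xTg labelled Cy5 and WT Cy3 each time. Genotype and dye therefore cannot be told apart in any difference given here, and in bulk tissue neither can fewer cells of a type and less RNA per cell.

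Trim proteins are named for their shared amino-terminal RING, B-box and coiled-coil arrangement, and many act as ubiquitin ligases. In mice the chromosome 7 cluster is an expanded family that includes relatives of human TRIM5 and TRIM34, proteins that recognise retroviral capsids. Many Trim genes are induced by interferons, whose receptors signal through Stat and Irf proteins to the interferon-stimulated response element (ISRE) in promoters of antiviral genes.

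The promoters are shown because most members of the cluster carry a match to the same short ISRE core pattern near their start sites. The core was searched as a pair of TTTC separated by any 2 bases, on both strands (a pair of GAAA on the other), in 300-base promoters, 250 bases before and 50 after each annotated start, taken from RefSeq (build GRCm38.p6). The 7 genes had 8 promoters, of which 6 held the core, against 1131 of all 32851 promoters (3.44%), 31 of 65 promoters of interferon-induced effector genes (47.7%) and 4 of 58 promoters of other Trim genes (6.9%). The gamma-activated site, searched as TTCNNNGAA, which is its own reverse complement, was in 1 of the 8 promoters, that of Trim30c, and in 8.3% of all promoters. The ISRE core was absent from the windows of Trim30b and Trim30c. A match of letters is a description and does not show that a factor binds there.

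The promoter of Trim30d, whose probe had the largest difference of the 10, is printed with the ISRE core in capitals.
Trim30d, chr7:104507800-104508099, minus strand: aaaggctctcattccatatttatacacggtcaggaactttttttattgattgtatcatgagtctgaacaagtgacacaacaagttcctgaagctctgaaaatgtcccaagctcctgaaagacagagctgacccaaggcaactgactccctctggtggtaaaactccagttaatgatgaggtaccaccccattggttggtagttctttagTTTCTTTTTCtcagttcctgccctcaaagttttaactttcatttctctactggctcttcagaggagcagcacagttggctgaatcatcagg
The promoter of Trim12a, whose 2 probes both differed by more than 1 log2 unit, is printed in the same way.
Trim12a, chr7:104315446-104315745, minus strand: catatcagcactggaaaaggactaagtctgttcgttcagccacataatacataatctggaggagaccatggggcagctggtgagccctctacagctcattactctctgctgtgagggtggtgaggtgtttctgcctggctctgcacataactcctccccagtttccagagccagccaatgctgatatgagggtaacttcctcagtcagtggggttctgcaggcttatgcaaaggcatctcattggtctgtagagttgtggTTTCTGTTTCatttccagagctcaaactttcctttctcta

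The stretches around the core, each of 50 bases with the core in capitals, allow the members to be compared. For Trim30c the capitals mark the 10 bases that align with the core of the upstream Trim30a start.
Trim30d, chr7:104507861-104507910, minus strand: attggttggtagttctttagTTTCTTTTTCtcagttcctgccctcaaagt
Trim30a upstream start, chr7:104465200-104465249, minus strand: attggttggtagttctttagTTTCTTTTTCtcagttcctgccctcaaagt
Trim30a downstream start, chr7:104446094-104446143, minus strand: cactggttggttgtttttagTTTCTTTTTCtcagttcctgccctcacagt
Trim30c, chr7:104400886-104400935, minus strand: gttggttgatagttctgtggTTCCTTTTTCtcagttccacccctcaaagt
Trim12a, chr7:104315456-104315505, minus strand: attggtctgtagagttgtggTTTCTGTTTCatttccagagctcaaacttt
Trim12c, chr7:104353349-104353398, minus strand: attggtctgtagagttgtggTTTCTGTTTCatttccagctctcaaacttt
Trim34a, chr7:104244447-104244496, plus strand: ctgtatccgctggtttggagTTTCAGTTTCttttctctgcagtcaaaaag
The Trim30d window and that of the upstream Trim30a start were identical over all 50 bases, and those of Trim12a and Trim12c differed at 2 bases. The Trim30c stretch carries T3C within the 10 capital bases, counted from 1 at the 5′ end of the Trim30a core. Over the whole promoter Trim30a (upstream start) and Trim30d were 93.6% identical across 295 aligned bases, and Trim12a and Trim12c were 95.0% identical across 260. Paralogues of such a family may share probe signal. No probe sequences were used here, so a probe is named by its annotated gene and what it binds was not tested.

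Trim30a encodes a protein known in mice for restraining inflammatory signalling by nuclear factor kappa B, and Trim30d a close relative known for an antiviral role against tick-borne flavivirus. Trim30d (A_52_P199633) measured 10.28, 11.39, 10.69 and 12.49 log2 units of normalized intensity in the 3xTg samples of replicates 1 to 4, against 9.44, 9.09, 9.28 and 9.78 in the WT samples. Every 3xTg sample lay above every WT sample, and the 3xTg samples of replicates 4 and 2 were the highest. The mean was 11.21 ± 0.96 in 3xTg samples, against 9.40 ± 0.29 in WT samples (SD, n = 4 each), which is a log2 difference of 1.81 ± 0.42 (SE over 4 arrays) or 3.51-fold.

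Trim30a (A_51_P275454) measured 7.16, 7.67, 6.57 and 7.79 log2 units in 3xTg, against 7.18, 7.66, 6.98 and 7.07 in WT. The groups overlapped, and the log2 difference of 0.08 ± 0.24 (SE, 4 arrays) was positive on 2 of 4 arrays. This probe was among the dimmest of the array, at the 3.24th percentile of mean intensity over all probes, and detection above background was not assessed here. Trim30c (A_55_P2098398), a further Trim30 paralogue, measured 9.08, 10.09, 9.52 and 9.86 in 3xTg, against 8.80, 9.89, 9.32 and 9.32 in WT. Its groups overlapped, but the 3xTg sample was the higher on all 4 arrays, with a log2 difference of 0.31 ± 0.08 (SE) or 1.24-fold.

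Trim12a and Trim12c are mouse relatives of human TRIM5, and Trim12c is known to promote interferon and nuclear factor kappa B signalling. Trim12a had 2 probes, and both were higher in 3xTg. At A_55_P2064659 it measured 9.98, 10.61, 10.47 and 11.52 log2 units in 3xTg, against 9.07, 9.11, 8.90 and 9.34 in WT. At A_52_P267391 it measured 10.56, 10.41, 10.97 and 10.98 in 3xTg, against 9.70, 9.52, 9.73 and 9.38 in WT. The groups did not overlap at either probe. The log2 differences were 1.54 ± 0.26 and 1.15 ± 0.17 (SE, 4 arrays), or 2.90-fold and 2.22-fold.

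The 3 probes of Trim12c did not move together. A_55_P2064652 measured 9.62, 9.41, 9.31 and 10.17 log2 units in 3xTg, against 9.08, 8.52, 8.83 and 8.55 in WT, with no overlap and a log2 difference of 0.88 ± 0.26 (SE, 4 arrays), or 1.84-fold. A_55_P2039061 measured 9.53, 10.29, 10.14 and 11.33 in 3xTg and 9.98, 10.27, 10.41 and 10.89 in WT, a log2 difference of -0.07 ± 0.19 that was positive on 2 arrays. At this probe the samples of an array resembled each other, and the groups overlapped. A_55_P2163857, the third probe, averaged 7.62 ± 0.35 in 3xTg samples, against 7.79 ± 0.32 in WT samples (SD, n = 4 each). It differed by -0.17 ± 0.05 (SE) and was negative on all 4 arrays. This probe was dim, at the 10.0th percentile of mean intensity over all probes.

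Trim34a is the mouse counterpart of human TRIM34, and its 2 probes disagreed as well. A_66_P105689 measured 8.64, 8.91, 9.03 and 9.64 log2 units in 3xTg, against 7.91, 8.00, 7.73 and 7.83 in WT. The 3xTg samples lay apart from the WT samples, and the WT samples were close together, with a log2 difference of 1.19 ± 0.24 (SE, 4 arrays) or 2.28-fold. A_66_P105689 was also dim, at the 21.7th percentile of mean intensity over all probes, and its detection above background was not assessed. A_52_P157316, the brighter probe, measured 9.43, 9.30, 9.64 and 9.39 in 3xTg and 9.56, 9.32, 9.47 and 9.40 in WT. Its values hardly spread, and the difference was 0.0027 ± 0.06 (SE). Why probes annotated to the same gene differ was not tested.

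**Figure D1:**
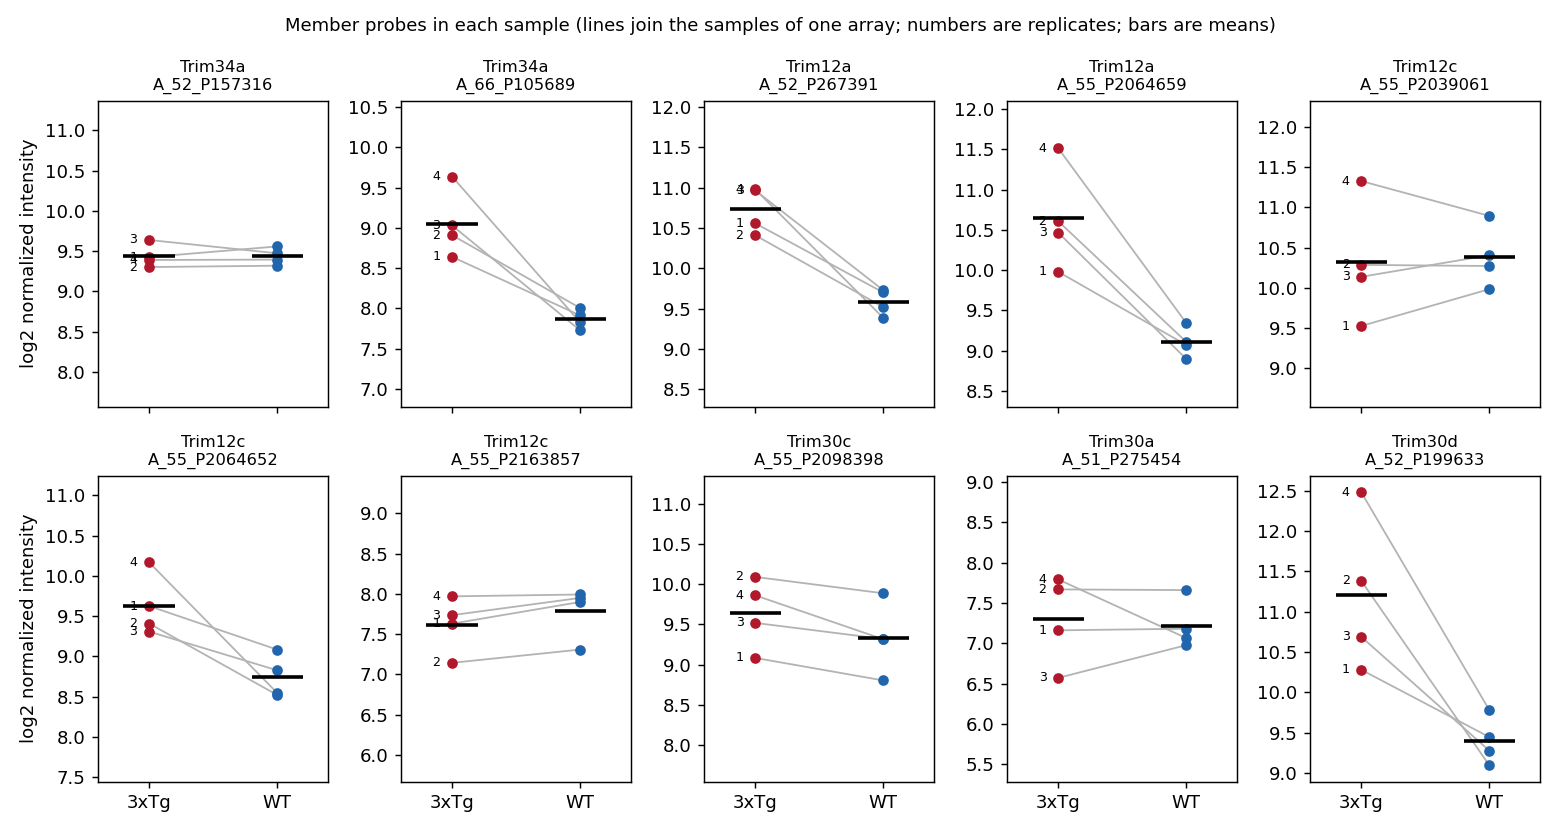
Log2 normalized intensity (vertical axis, each panel spanning the same number of log2 units) of the 10 member probes in the 4 3xTg and 4 WT samples; lines join samples of an array, numbers are replicates and bars are group means. The groups lie apart in 5 panels (Trim34a A_66_P105689, both Trim12a probes, Trim12c A_55_P2064652 and Trim30d) and overlap in the other 5.

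Among the 10 probes 5 had groups that did not overlap, all higher in 3xTg, where 2.02% of all probes did so (4.53% in either direction). On all 4 arrays 6 were higher in 3xTg, as were 13.4% of all probes. In the limma fit over all probes 4 of the 10, in 3 genes, passed an adjusted p of 0.05 as higher (both Trim12a probes, Trim34a A_66_P105689 and Trim30d) and 0 as lower, where 0.621% of all probes passed as higher and 0.603% as lower (1.22% in either direction). Since these differences took part in the choice of the genes, nothing is read from the counts. Without replicate 2, 0 of the 10 passed, and 6 had an unadjusted p under 0.05 in that fit, as had 8.5% of all probes. Trim30d did not pass with quantile normalization, with trend and robust moderation, with no array term or without replicate 4. Trim34a A_66_P105689 did not pass without replicate 3 or with no array term, and Trim12a A_55_P2064659 did not pass with no array term. With each gene taken at its brightest probe only, 2 of 6 genes passed, since the Trim34a probe that passed is the dimmer of its pair.

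The arrays did not contribute equally. The difference was the largest on the array of replicate 4 at 9 of the 10 probes, the exception being Trim34a A_52_P157316, and the lowest on that of replicate 1 at 7. Within arrays Trim30d differed by 0.84, 2.29, 1.41 and 2.71 log2 units for replicates 1 to 4. Trim12a (A_55_P2064659) differed by 0.91, 1.50, 1.57 and 2.17, and Trim34a (A_66_P105689) by 0.73, 0.90, 1.30 and 1.81. The median over the 10 probes was 0.59, against 0.0088 over all probes, and it was 0.41, 0.55, 0.34 and 1.16 on the arrays of replicates 1 to 4. Without replicate 4 it was 0.43. With each of the 6 genes at its brightest probe only, the median difference was 0.19.

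**Figure D2:**
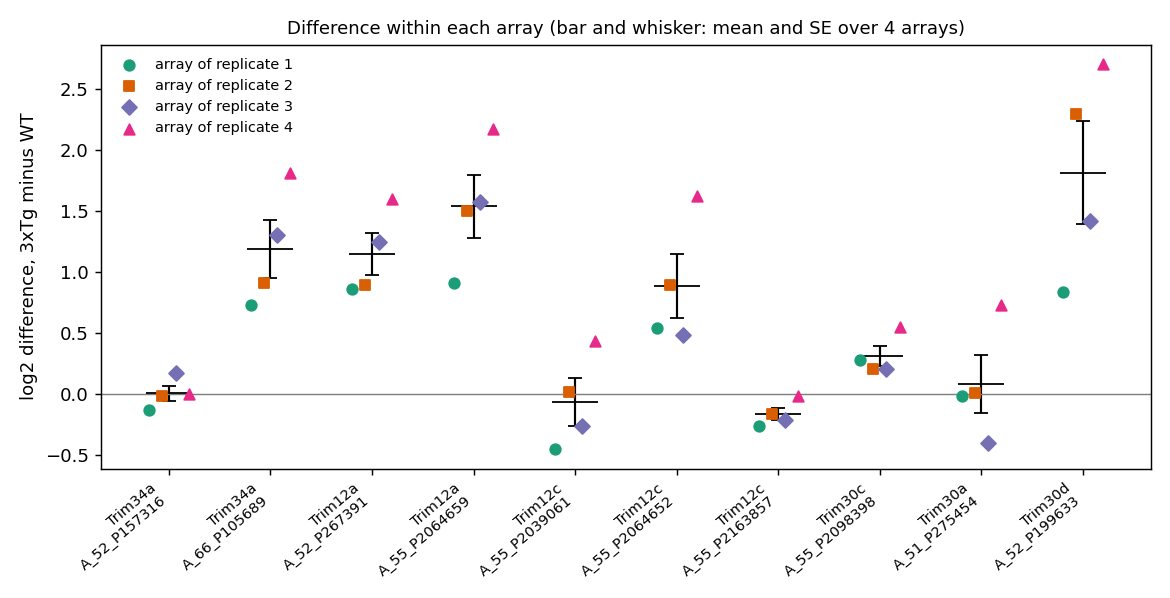
Log2 difference, 3xTg minus WT, of each member probe within each of the 4 arrays (symbols) with the mean and SE over arrays (bar and whisker). The array of replicate 4 gives the highest value at 9 of 10 probes, and probes of Trim34a and Trim12c spread between a difference near 0 and one of about a log2 unit.

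With each genotype's mean removed, the remaining spread over the 8 samples was compared between probes. This takes out the mean contrast only, and differences that are unequal between arrays stay in the spread. The SD of Trim30d was 0.96 in 3xTg and 0.29 in WT samples, and that of Ifit1 1.55 and 0.41. The samples of an array share hybridisation, so these correlations are descriptions. Trim30d followed Trim12a A_55_P2064659 (Pearson r = 0.96), Trim12c A_55_P2039061 (r = 0.91) and Trim34a A_66_P105689 (r = 0.81). It followed the other Trim12a probe less closely (r = 0.23), and the Trim34a probes had r = -0.10 with each other. Among the brightest probes of 21363 genes, the 5 most like Trim30d were those of Ifit1, an interferon-induced antiviral gene (r = 0.99), Clec2i (0.99), Oard1 (0.99), Gjc3 (0.98) and Rwdd4a (0.98). For Trim30a they were Arf1 (1.00), Clstn1 (0.99), Pabpn1 (0.99), Kcna6 (0.98) and Cmtr1 (0.98). These genes were picked as the highest of 21363, so their r has no test. Within arrays Ifit1 differed by 0.55, 2.38, 0.90 and 3.32 for replicates 1 to 4, largest on the arrays where Trim30d differed most.

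Genes beside the cluster were compared next, in the order of RefSeq genes (GRCm38.p6). Of the 15 measured genes nearest on each side and 2 between the members, 0 of 32 passed as higher or lower at the brightest probe (limma, adjusted over all probes), where 1.18% of genes passed in either direction. At an unadjusted p under 0.05 there were 8, all higher in 3xTg, or 25% of the 32. Over all 21363 genes 1869 were higher with such a p and 2003 lower, or 18.1% in either direction. Most of the 32 are named as olfactory receptor (Olfr) genes. Most were also dim, and 13 of them remained with the dimmest 25% of probes left out. Their mean level was 8.62 to 8.83 in 3xTg samples and 8.53 to 8.68 in WT samples, against sample medians of 10.12 to 10.15. Detection above background was not assessed, so the lack of calls among the 32 does not show that they were unchanged. The median difference of the 32 was 0.11, with 23 above 0, against 0.01 over all genes.

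Trim34b and Trim5, which lie between the members, differed by 0.43 ± 0.10 and 0.18 ± 0.12 log2 units (SE from limma, adjusted p = 0.104 and 0.468). Trim30e-ps1, a pseudogene beside Trim30d, averaged 9.39 ± 0.39 in 3xTg samples, against 8.94 ± 0.24 in WT samples (SD, n = 4 each). Its difference was 0.45 ± 0.11 (SE, limma adjusted p = 0.0991) and was positive on 4 of 4 arrays. Trim6, next to Trim34a on the other side, differed by 0.12 ± 0.11 (adjusted p = 0.582), and 2 dimmer probes of it read 0.10 and -0.17. The next genes outward, Olfr649 and Olfr651, differed by -0.30 and 0.02 (adjusted p = 0.351 and 0.959).

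**Figure D3:**
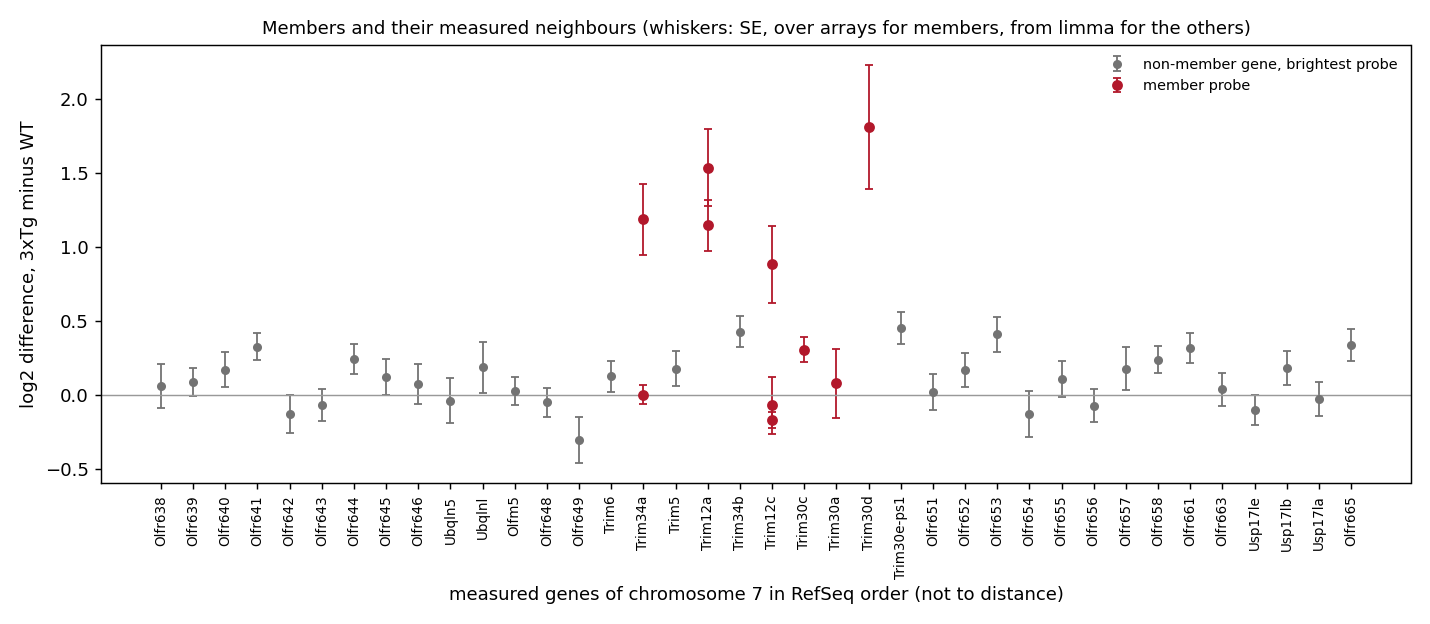
Log2 difference, 3xTg minus WT, of member probes (red, SE over 4 arrays) and of their measured neighbours at the brightest probe (grey, SE from limma), in RefSeq gene order along chromosome 7 and not to distance. Member probes reach 1.81 (Trim30d), while the neighbours lie between -0.30 and 0.45.

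The remaining Trim genes of the array were 61, of which 10 lie on chromosome 7, 4 of these being neighbours already described (Trim5, Trim6, Trim34b and Trim30e-ps1). Of the 61 other Trim genes 1 passed as higher and 0 as lower at the brightest probe (limma, adjusted over all probes), where 0.562% of genes passed as higher and 0.623% as lower, and 40 lay above 0 (65.6%, against 52.6% of all genes). Their median was 0.06, and 0.02 without replicate 1 or 0.04 without replicate 4. The gene that passed, Trim38 on chromosome 13, encodes a regulator of innate immune signalling. It measured 8.31, 9.36, 8.55 and 9.19 log2 units in 3xTg, against 7.60, 8.51, 7.85 and 8.21 in WT. The groups overlapped, but within arrays the 3xTg sample was higher by 0.70 to 0.98, a difference of 0.81 ± 0.10 (SE, limma adjusted p = 0.0144). Trim38 did not pass without replicate 1 (adjusted p = 0.0531) or without replicate 2 (adjusted p = 0.18). Trim16 passed only at its dimmer probe (0.53, adjusted p = 0.0466, with -0.08 at the brightest) and was named after its values were seen.

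The remaining Trim genes of chromosome 7, outside the cluster, did not pass. Trim66 differed by 0.37 (limma adjusted p = 0.167) and Trim28, a corepressor of transposable elements, by -0.35 (adjusted p = 0.215, with 0.18 at its other probe). Trim72, Trim21, Trim3 and Trim68 differed by 0.15, 0.07, -0.13 and -0.14 (adjusted p between 0.597 and 0.8).

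The interferon pathway was then followed from ligands to effectors over 118 measured genes. At the brightest probe 3 passed as higher in 3xTg and 0 as lower (limma, adjusted over all probes), against 0.562% of genes that passed as higher. The 3 were effectors, and 0 of 14 ligands, 5 receptors, 17 sensors and adaptors and 13 signal transducers passed in either direction, with 1, 3, 3 and 2 of them at an unadjusted p under 0.05. Among the effectors 23 of 69 had such a p (33.3%), all higher in 3xTg. Over all 21363 genes 1869 were higher with such a p and 2003 lower, or 18.1% in either direction. Interferon results of these samples were known when the lists were written, so they are not independent of the choice.

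Among the ligands the median difference was -0.07, and -0.03 without replicate 4. Ifna4 differed by 0.40, Ifnk by 0.31 and Ifne by -0.20 log2 units (limma adjusted p = 0.102, 0.329 and 0.33). Among the receptors, the type I receptor subunits Ifnar1 and Ifnar2 differed by -0.32 and 0.28 (adjusted p = 0.209 and 0.26). Ifnar1 read 0.30 and -0.33 elsewhere, at 2 dimmer probes. Il10rb, which serves type III interferons, differed by 0.41 (adjusted p = 0.254) and the type II receptor Ifngr1 by 0.09 (adjusted p = 0.677).

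Sensors and adaptors had a median of 0.02, and of 0.04 without replicate 2 or -0.02 without replicate 3. The cytosolic RNA sensor Ddx58 differed by 0.42 (limma adjusted p = 0.23, with -0.01 at its other probe), its adaptor Mavs by 0.34 (adjusted p = 0.218) and the DNA sensor Aim2 by -0.61 (adjusted p = 0.165), and the transcription factor Irf3 by -0.09 (adjusted p = 0.669). Signal transducers had a median of 0.12, and of 0.21 without replicate 3 or 0.05 without replicate 4. Irf7, which amplifies interferon responses, measured 8.79, 9.30, 9.44 and 10.73 log2 units in 3xTg, against 9.05, 8.48, 8.74 and 8.81 in WT, a difference of 0.80 ± 0.29 (SE, adjusted p = 0.221) that was positive on 3 arrays. Irf1, Irf9 and Stat2 differed by 0.35, 0.27 and 0.03 (adjusted p = 0.252, 0.32 and 0.951), and Irf1 by -0.07 at its other probe.

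Of 69 interferon-induced effector genes 3 passed as higher and 0 as lower. Above 0 lay 59 and below it 10, with a median of 0.20. The groups did not overlap in 5, all higher in 3xTg, where 2.02% of all probes did so. Without passing, Ifit1 differed by 1.79, Ifit3 by 1.78 and Oasl2 by 1.77 (limma adjusted p = 0.096, 0.0697 and 0.0903). They were named after their values were seen. Xaf1, a promoter of apoptosis, measured 10.54, 11.47, 11.39 and 12.61 log2 units in 3xTg, against 9.62, 9.27, 9.61 and 10.01 in WT (1.87 ± 0.24 SE, limma adjusted p = 0.0194), with -0.22 at its other probe. Eif2ak2, the kinase PKR that double-stranded RNA activates, measured 11.12, 11.19, 10.90 and 12.03 in 3xTg, against 9.76, 9.76, 10.23 and 10.21 in WT (1.32 ± 0.17 SE, adjusted p = 0.0208). Both genes had groups that did not overlap, and so had Ifit3b, Ifit3 and Gbp3. Ifit3b, of the family that binds viral RNA, averaged 11.53 ± 0.99 in 3xTg samples, against 10.04 ± 0.30 in WT samples (SD, n = 4 each), and differed by 1.49 ± 0.26 (SE, limma adjusted p = 0.0448), with 1.25 (adjusted p = 0.051) at its other probe. Apobec3, a cytidine deaminase that restricts retroviruses, passed as lower at its dimmer probe (-0.70, adjusted p = 0.0322, with 0.09 at the brightest) and was named after its values were seen.

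Without replicate 2, 0 of the 118 genes passed, with adjusted p of 0.2 for Xaf1, 0.213 for Eif2ak2 and 0.353 for Ifit3b. Eif2ak2 also did not pass without replicate 1 (adjusted p = 0.073), nor Ifit3b without replicate 3 or replicate 4 (adjusted p = 0.0634 and 0.0895). Ifit3b further missed the threshold with quantile normalization (adjusted p = 0.0708), trend and robust moderation (0.0569) and the dimmest probes left out (0.0534). By array, replicates 1 to 4, the effector median was 0.08, 0.22, 0.11 and 0.53, so replicate 4 was the highest here as it was for the cluster. Without replicate 4 it was 0.13.

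**Figure D4:**
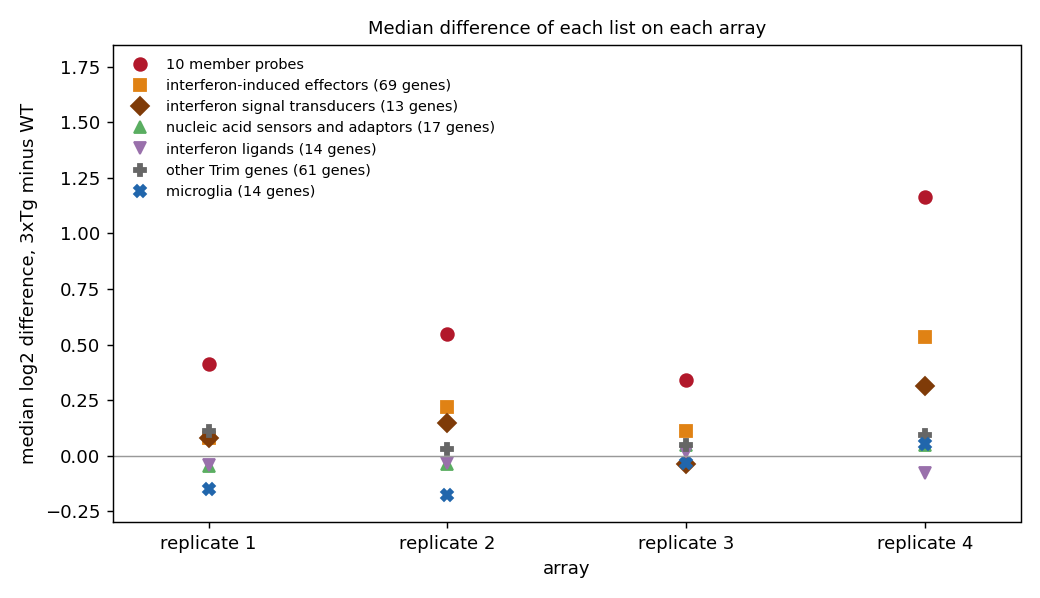
Median log2 difference, 3xTg minus WT, on each array for the 10 member probes and for lists of non-member genes at the brightest probe. The measures are unlike, since members count every probe. At the brightest probe of each gene, with all 4 arrays, the member median is 0.19 and the effector median 0.20. On the array of replicate 4 the member median is 1.16 and the effector median 0.53, and the microglial medians lie between -0.18 and 0.05.

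The tissue label and other cell types were checked with marker lists. Bright markers from lists of the niche and its surroundings were present. Tubb3 and Sp9 of the neuroblast and transit-amplifying list were at 15.02 and 14.33 in 3xTg and 14.79 and 13.53 in WT. Slc1a3 of the astrocyte list was at 15.01 in 3xTg and 14.58 in WT. Ccdc153 of the ependymal list was at 13.14 in 3xTg and 13.37 in WT. Which cells gave these signals was not tested. Tubb3 and Sp9 do not stand for the 11 neuroblast and transit-amplifying markers, of which 5 lay above 0 and 6 below, with a median of -0.02 (-0.06 to 0.10 with 1 array left out). Slc1a3 and Ccdc153 do not stand for their lists either. Of 10 astrocyte and neural stem cell markers 7 lay above 0 and 3 below, with a median of 0.16 (0.09 to 0.21). Of 9 ependymal markers 3 lay above 0 and 6 below, with a median of -0.04 (-0.18 to 0.06). Of the microglial and leukocyte markers 0 passed (limma, adjusted over all probes). Itgam of the microglial list averaged 16.00 in 3xTg samples and 15.99 in WT samples. That is at or close to the scanner limit, where little difference could show. Microglia had a median difference of -0.03 over 14 genes, T and NK cells 0.01 over 7, B cells 0.09 over 4, and monocytes and neutrophils 0.09 over 9. In these lists 4 microglial genes had an unadjusted p under 0.05 (28.6%), all lower in 3xTg, and 0 genes of the other 3 lists. Over all 21363 genes 2003 were lower with such a p and 1869 higher, or 18.1% in either direction. With 1 array left out the microglial median was -0.08 (without replicate 3 or replicate 4) to -0.01 (without replicate 1 or replicate 2), and that of T and NK cells -0.09 (without replicate 3) to 0.16 (without replicate 1). The mean level of the microglial list was 11.60 to 11.82 in 3xTg samples and 11.79 to 12.01 in WT samples. That of the monocyte and neutrophil list was 8.84 to 9.08 in 3xTg samples and 8.72 to 9.11 in WT samples.

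Endothelial markers had a median of 0.09 over 9 genes (-0.02 without replicate 3, 0.03 without replicate 4), oligodendrocyte markers 0.28 over 9 (0.58 without replicate 1) and red blood cell markers 0.21 over 6 (0.02 without replicate 3). Striatal projection neuron markers had a median of -0.93 over 9 genes, with -2.18 and -1.72 on the arrays of replicates 1 and 2 and 0.20 and -0.37 on those of replicates 3 and 4. At an unadjusted p under 0.05, 7 of 9 striatal markers and 2 of 9 endothelial markers were lower in 3xTg, and 3 of 9 oligodendrocyte markers were higher. Of 10 astrocyte and neural stem cell markers 4 were higher and 2 lower at such a p. Of 11 neuroblast and transit-amplifying markers 2 were higher and 2 lower. Of the ependymal and red blood cell markers 0 had such a p, and over all genes the share was 18.1% in either direction. Whether the makeup of the dissected tissue has a part in the cluster's values was not tested. App, the mouse gene, differed by 0.18 (limma adjusted p = 0.405), and whether its probe reads the human transgene was not tested.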

How the data were processed

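Per the labels, total RNA of 8 samples (4 3xTg, 4 WT) was hybridised in pairs to 4 2-colour arrays. The deposited table holds log2 intensities that the authors had normalized, 1 per probe and sample. The submitters' processing notes name limma, while its version, background correction and normalization settings were not given in the sources used. The label field gives 3xTg Cy5 and WT Cy3, while the labelling protocol names Cy3 only, so the direction rests on the label field. Sample medians were 10.12 to 10.15, and 0 member values were at the scanner limit. Among the listed non-members the brightest probes of Itgam, Trim25 and Oas1b were at or close to it. Itgam and Trim25 held the same value as each other in each of the 8 samples. Mbp read that value too, 15.995, in the 3xTg sample of replicate 4. Trim25 averaged 16.00 in 3xTg samples and 15.99 in WT samples, and Oas1b 15.97 and 15.93. Depth does not apply, and the 4 arrays limit precision.

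The platform annotation gave 29769 of 32684 probes 1 symbol, 0 several and 2915 none. By Entrez identifier 29519 matched RefSeq (GRCm38.p6), used for names and gene order.

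limma 3.58.1 (R 4.3.3, statmod 1.5.0) fitted genotype with the array as a fixed effect, two-sided, with Benjamini-Hochberg adjustment over all probes at 0.05, and was tested on simulated data. The labels pair samples by array. Deviations from group means correlated at 0.78, 0.78, 0.54 and 0.82 within arrays, against 0.18 at most between them. A gene stands for its brightest probe, except members, given at every probe with plain SEs over arrays.

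Members and lists were chosen with earlier results of these data known. The text names every member probe, up to 3 genes of smallest p per interferon list with core receptors and factors, all Trim genes of chromosome 7, nearest and passing neighbours, the 5 genes of likest pattern, and bright markers. Trim14, Trim21, Trim25 and Trim56 are in both the effector and the Trim list.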

Additional observations from a re-analysis of the deposited data

Results flagged for a closer look

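In 6 of 123 sets of 4 values, a sample lay far from the other 3 relative to their whole range (chance gives about 1 in 20). Among the member values 1 was of this kind, the WT sample of replicate 2 at Trim12c A_55_P2163857, at 7.31. The other 5 were the WT sample of replicate 1 for Mavs (7.65), the 3xTg sample of replicate 4 for Stat2 (10.51), the WT sample of replicate 2 for Trim66 (9.86), and the within-array differences of replicate 4 for Trim21 (0.40) and of replicate 2 for Trim30e-ps1 (0.74).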

How the results depend on the processing

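Most counts depended on the array term, the moderation or normalization, and which arrays were kept. With no array term (no replicate block), 78 probes passed in place of 400, with 0 interferon genes, 0 other Trim genes and 1 member probe. With the array as a random block, 1309 probes passed, with 5 interferon genes, 3 other Trim genes and 5 member probes. Quantile normalization gave 247 probes, and trend with robust moderation 905. Leaving out the dimmest 25% of probes gave 0 other Trim genes, since Trim38 was among those left out. Of the member probes 7 were kept, without Trim34a A_66_P105689, and 3 passed. With 1 array left out, 31 to 414 probes passed, 0 to 3 interferon genes, 0 to 1 other Trim genes and 0 to 4 member probes, and the fewest came without replicate 2 in each case (other Trim genes also without replicate 1). The member median was 0.43 to 0.68 with 1 array left out. The counts of chromosome 7 neighbours stayed at 0 under all alternatives. With 1 array left out, the sign of 3 member probes was not fixed, with differences of -0.14 to 0.24 at Trim30a, -0.24 to 0.06 at Trim12c A_55_P2039061 and -0.05 to 0.05 at Trim34a A_52_P157316. Detection above background was not assessed.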
